A study of Mus musculus with 16 samples.

Results

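The 45 genes described here encode lysosomal enzymes, lysosomal membrane proteins and subunits of the proton pump that acidifies the lysosome. They were taken by symbol from a fixed list, and 45 of 45 were found among the 50508 genes of the count table. By textbook role they comprised 9 proteases, 11 glycosidases and sulfatases, 5 lipid hydrolases, 3 lumenal cofactors, 8 membrane proteins, 6 V-ATPase subunits, and a group of 3 with the transcription factors Tfeb and Tfe3 and the autophagy receptor Sqstm1. Sequenced RNA came from monocytes derived from bone marrow, also labelled myeloid cells, of 4 wild-type mice numbered WT1 to WT4 (animals 1 to 4 here). Cells of every animal were grown with macrophage colony-stimulating factor (M-CSF) and received vehicle, PFM037, tumour necrosis factor (TNF), or PFM037 and TNF together for 24 h, which gave 4 groups of 4 libraries. Only a code name identifies PFM037, and the sources used here give neither its target, its dose and the dose of TNF nor the age and sex of the animals. All groups share the M-CSF and the wild-type genotype, and the 4 libraries of an animal come from the same marrow donor.

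Lysosomes break down material from endocytosis, phagocytosis and autophagy. Their soluble hydrolases are made in the endoplasmic reticulum, tagged with mannose phosphate and carried to the organelle by mannose phosphate receptors. The V-ATPase has a cytosolic sector that hydrolyses ATP and a membrane sector that moves protons into the lumen, which gives the acid pH that most of these enzymes need. TFEB and TFE3 are held in the cytosol when the kinase complex mTORC1 is active on the lysosomal surface, and in the nucleus they bind a short palindrome in the promoters of many lysosomal genes. Macrophages and monocytes are rich in lysosomes, in which they degrade engulfed particles and process antigens.

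Library totals ran from 9403232 counts (TNF, animal 4) to 21017905 counts (TNF, animal 1). The 45 genes took between 2.365% of the counts (PFM037, animal 2) and 3.91% (vehicle, animal 4). Each of them passed the filter on low counts. Levels are given as CPM, read counts scaled to a common library total with TMM factors. Of the markers of the labelled cell type, Csf1r, the M-CSF receptor, was at 1010 to 2860 CPM and Itgam at 1680 to 2640 CPM. Lowest in that list were Fcgr1 at 14 to 378 CPM and Mertk at 1.89 to 27.1 CPM. Markers of neutrophils were also present, with S100a8 at 2530 to 6170 CPM and Mpo at 259 to 1240 CPM. The haemoglobin gene Hbb-bs was at 550 to 2450 CPM. Of the osteoclast markers, Mmp9 was at 114 to 436 CPM and Nfatc1 at 52.8 to 89.9 CPM, while Calcr was at 0 in 14 of 16 libraries. Of the stromal and endothelial markers, Pecam1 was at 16.2 to 40.6 CPM and Col3a1 at 0 in 15 libraries. Of the dendritic cell markers, Flt3 was at 13.7 to 25.4 CPM, Ccr7 at 2.59 to 33.7 CPM and Xcr1 at 0 in 10 libraries. These 3 were the markers at 0 in most libraries. In such bulk samples, fewer cells of a type and less RNA per cell cannot be told apart.

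Differences are log2 fold changes from the edgeR quasi-likelihood test, fitted over 13856 genes and adjusted by Benjamini-Hochberg over all of them, with a threshold of 0.05. The model held a mean for each of the 4 treatments. Because the same animals are in every group, a second, blocked model with a term for the animal, which compares libraries within an animal, is given beside it wherever it changed a call. Changes are given in log2 units ± SE. That SE was derived from the test, as the size of the change divided by the square root of its F statistic. In the model without a block, p-values rest on the spread between libraries of the same treatment, and libraries of an animal are taken as independent. In the blocked model they rest on the spread left once differences between the 4 animals are taken out. Each lysosomal gene is said to have risen or fallen only where an adjusted p passed the threshold, and the model is named.

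Promoters of 5 of the genes whose levels are given in full below are shown because they hold the palindrome of the TFEB family. The sequences are from RefSeq on GRCm38.p6, run 5′ to 3′ on the minus strand from 250 bases before the annotated start to 20 bases after it, and capitals mark each match to TCACGTGA or, where that is absent, to its inner CACGTG. Positions count from the start, so that the first base upstream is -1. The window of Ctsd, chr7:142387808-142388077, holds TCACGTGA at -99 and a separate CACGTG at -245. That of Gla, chrX:134600986-134601255, holds TCACGTGA at -228 and again at -195, and that of Atp6v0d1, chr8:105566045-105566314, holds it at -4. The shorter CACGTG lies at -29 in Sgsh, chr11:119355491-119355760, and at -49 in a window of Lgmn, chr12:102439073-102439342. Lgmn has 2 windows in the table, and the window shown belongs to the start that lies 636 bases further inside the gene. The other, at chr12:102439679-102439978, spans the annotated 5′ end of the gene and holds no CACGTG.
Ctsd: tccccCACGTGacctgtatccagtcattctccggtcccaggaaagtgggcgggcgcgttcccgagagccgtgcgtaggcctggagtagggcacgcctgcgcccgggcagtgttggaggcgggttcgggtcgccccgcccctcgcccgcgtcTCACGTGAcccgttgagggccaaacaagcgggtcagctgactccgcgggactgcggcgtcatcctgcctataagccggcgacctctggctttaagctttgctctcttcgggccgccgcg
Gla: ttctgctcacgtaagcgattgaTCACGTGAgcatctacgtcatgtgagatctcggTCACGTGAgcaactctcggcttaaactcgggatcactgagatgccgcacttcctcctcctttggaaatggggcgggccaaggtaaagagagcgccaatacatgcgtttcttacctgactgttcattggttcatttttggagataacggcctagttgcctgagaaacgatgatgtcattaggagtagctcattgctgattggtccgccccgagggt
Atp6v0d1: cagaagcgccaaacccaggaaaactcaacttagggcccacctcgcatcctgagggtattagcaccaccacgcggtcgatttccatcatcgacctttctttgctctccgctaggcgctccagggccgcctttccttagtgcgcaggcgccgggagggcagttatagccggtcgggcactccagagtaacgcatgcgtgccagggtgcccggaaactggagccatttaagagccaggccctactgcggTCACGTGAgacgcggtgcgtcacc
Lgmn: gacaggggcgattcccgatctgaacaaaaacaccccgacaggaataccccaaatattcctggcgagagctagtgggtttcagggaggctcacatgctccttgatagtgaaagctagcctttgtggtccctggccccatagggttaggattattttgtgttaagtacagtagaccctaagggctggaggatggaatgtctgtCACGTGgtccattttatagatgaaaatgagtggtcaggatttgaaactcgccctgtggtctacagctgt
Sgsh: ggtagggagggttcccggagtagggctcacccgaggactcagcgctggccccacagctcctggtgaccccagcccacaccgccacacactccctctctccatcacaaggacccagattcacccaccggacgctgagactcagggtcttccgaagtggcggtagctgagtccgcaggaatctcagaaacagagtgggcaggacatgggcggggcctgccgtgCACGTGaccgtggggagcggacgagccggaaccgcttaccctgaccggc

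Of the 45 genes, 37 had a promoter window of 300 bases in the RefSeq table, 6 of them more than 1, and a gene was counted where any of its windows held the motif. Ctsb, Ctsh, Galns, Asah1, Plbd2, Npc1, Atp6v1b2 and Atp6v1h had none. TCACGTGA, which reads the same on both strands and contains CACGTG, occurred in 6 of 37 genes (16.2%), namely Ctsd, Ctsa, Gla, Mcoln1, Atp6v1a and Atp6v0d1. Among all tested genes with a window, 2.24% held it, and among all genes with a window 1.12%. CACGTG occurred in 12 of 37 genes (32.4%), which adds Lgmn, Ctsl, Glb1, Gaa, Sgsh and Lamp1, against 11.8% of tested genes and 8.09% of all. No lipid hydrolase, lumenal cofactor or transcription factor of the list had CACGTG in its window. A match describes these letters in this window and is not evidence of binding.

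Levels between genes were compared per kilobase of exon (GENCODE M21, GRCm38), as the mean CPM of 16 libraries. Psap, which encodes prosaposin, the precursor of the saposins that help enzymes reach sphingolipids, was highest with 2153 CPM per kilobase. It was followed by the proteases Ctsd at 825, Ctsb at 712 and Ctsz at 626, and by the abundant membrane glycoprotein Lamp1 at 572 CPM per kilobase. At the other end, the proteolipid subunit Atp6v0c had 3.08 CPM per kilobase, Sgsh 4.49 and Mcoln1, a calcium channel of the membrane, 6.94. Tfeb was at 7.99 and Tfe3 at 16.4 CPM per kilobase. The 2831 counts of Atp6v0c over all libraries stand beside 200 of its copy Atp6v0c-ps1, and the 39420 of Cd63 beside 840 of Cd63-ps, so reads of both genes may be shared with a copy.

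**Figure D1:**
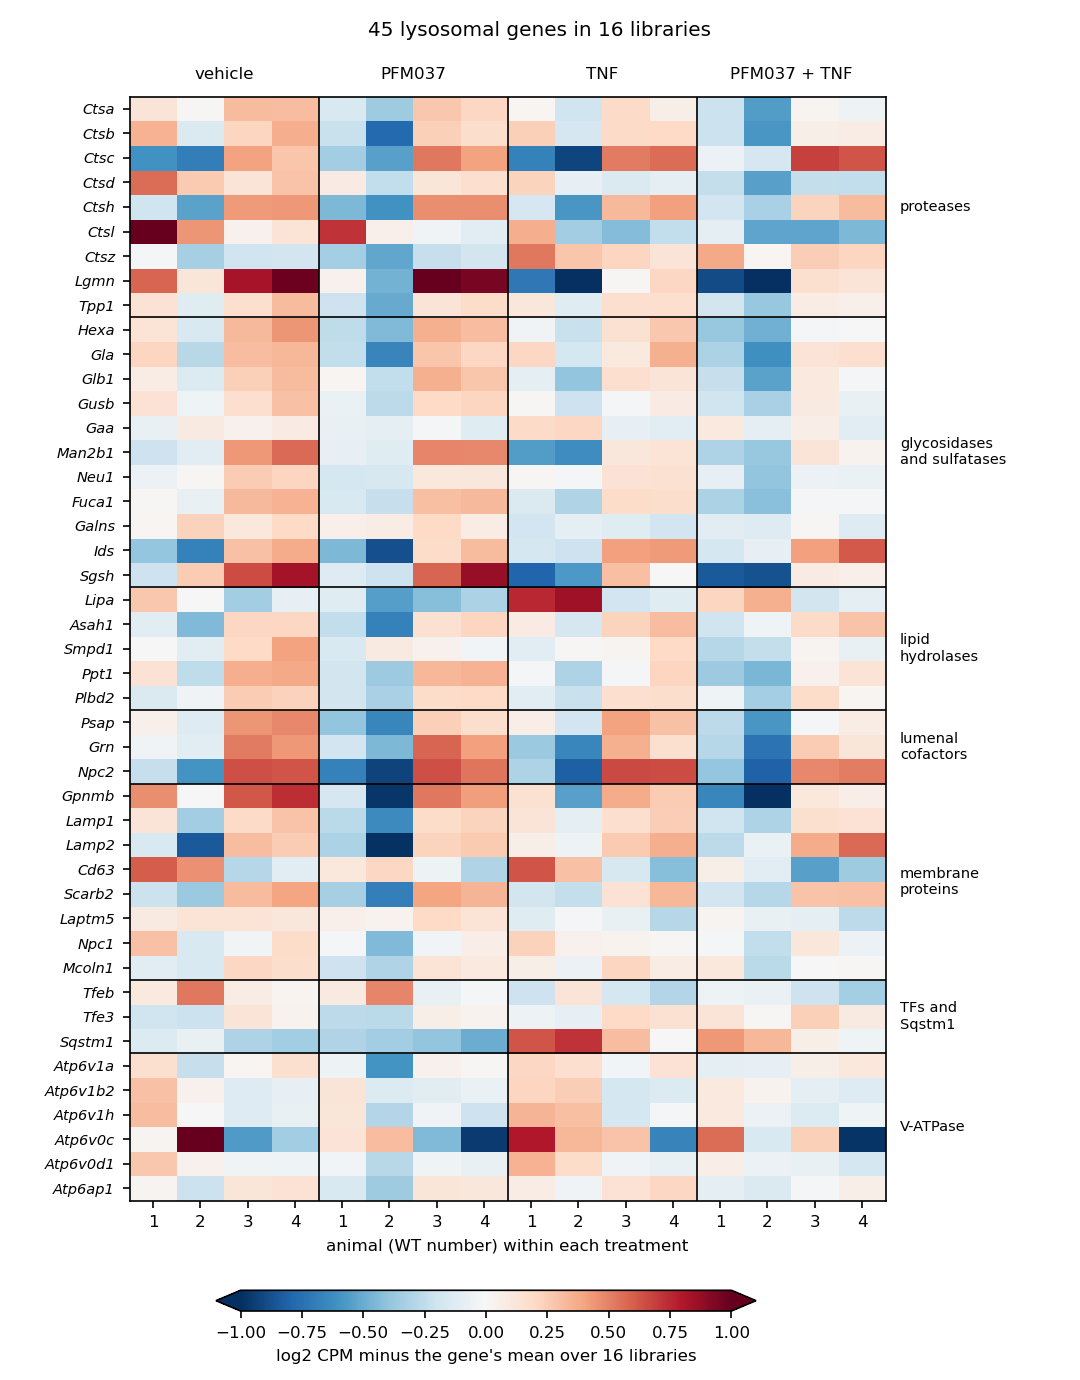
Colour shows the log2 CPM of each of the 45 genes (rows, grouped by role) in each of the 16 libraries (columns, animals 1 to 4 within each treatment) minus the gene's mean over the 16, with colours saturating at 1 on either side. Columns of animal 2 are mostly blue, and Lgmn is low and Sqstm1 high in the columns with TNF.

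TNF raised the carboxypeptidase gene Ctsz and the autophagy receptor gene Sqstm1 and lowered the sulfatase gene Galns in the model without a block. These were the 3 of 45 genes called, with 2 higher and 1 lower, beside 1.80% of all 13856 genes called higher and 0.880% called lower. Scaled by library size alone, neither rise was called (adjusted p = 0.0646 for Ctsz and 0.0675 for Sqstm1) and Galns was, whereas with DESeq2 size factors both rises were called and Galns was not (adjusted p = 0.0529). With the animal as a block, 14 were called, 2 higher and 12 lower, beside 9.59% of all genes higher and 9.84% lower. The 12 lower genes were Lgmn, Ctsl and Ctsd among proteases, Sgsh, Man2b1, Galns, Fuca1 and Glb1 among glycosidases and sulfatases, the cofactor Grn, the membrane proteins Gpnmb and Laptm5, and Tfeb. No lipid hydrolase and no V-ATPase subunit of the 45 genes was called. The median log2 change of the 45 genes was -0.047, beside -0.017 over all genes, and 29 of 45 were below 0, beside 52.6% of all genes. Under library size alone 34 of 45 were below 0, beside 61.5%.

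In the 4 animals taken one by one, 18 of the 45 genes were lower with TNF in all 4 (40%, beside 22.2% of all genes). Higher in all 4 were 6 genes, beside 18.6% of all genes. When each animal was left out of the blocked model, between 8 and 12 genes were called, and 7 were called each time: Ctsz and Sqstm1 higher and Lgmn, Ctsl, Sgsh, Man2b1 and Grn lower. Without animal 4 the count was 8, with 10 without animal 1, 11 without animal 2 and 12 without animal 3. Marker sums moved with TNF as well. The 10 monocyte and macrophage markers summed to 26360 to 37140 CPM with vehicle and 36820 to 45180 CPM with TNF, most of it from Lyz2, the gene of lysozyme. With the block 5 of the 10 rose, namely Lyz2, Cd14, Ly6c2, Csf1r and Itgam, and 3 fell, namely Mertk, Fcgr1 and Ccr2. Ccr2, a chemokine receptor of monocytes, was at 663, 497, 1199 and 1132 CPM with vehicle and 338, 291, 774 and 803 CPM with TNF. The 9 neutrophil markers summed to 8605 to 18180 CPM with vehicle and 7554 to 11970 CPM with TNF, and with the block 4 of the 9 fell. The part of these shifts in the changes of lysosomal genes was not tested.

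**Figure D2:**
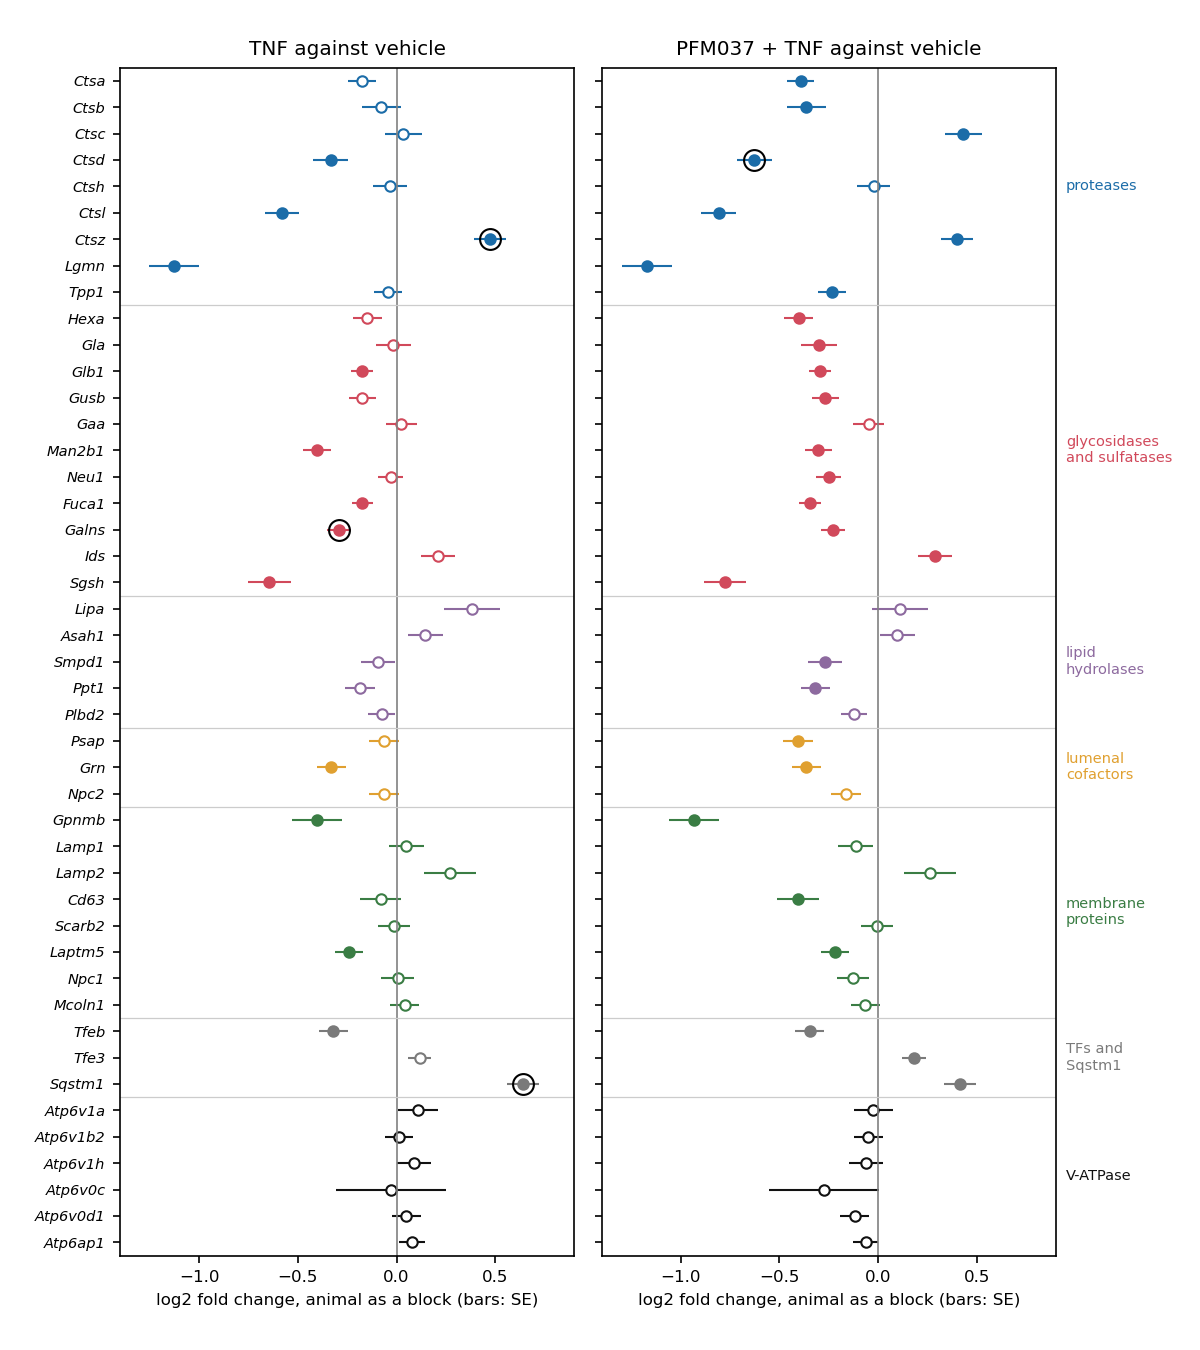
Points give the log2 fold change of each gene from the blocked model (bars, SE) for TNF against vehicle and for PFM037 with TNF against vehicle, filled where the blocked adjusted p passed the threshold and ringed where the model without a block called the gene. With TNF alone 14 points are filled, and with both agents 28, of which 23 lie below 0.

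Among the proteases, Lgmn, the asparaginyl endopeptidase (chr12:102394084-102439813, minus strand), had the largest difference with TNF. It was at 971, 704, 1144 and 1278 CPM in animals 1 to 4 with vehicle and at 394, 241, 653 and 749 CPM with TNF. The level was lower with TNF in each animal, while the groups overlapped, with animals 1 and 2 low under either treatment. The log2 change was -1.01 ± 0.43 log2 units, adjusted p = 0.31 without a block, and with the animal as a block Lgmn fell by 1.13 ± 0.13 (SE, adjusted p = 1.09e-05). With PFM037 it was at 666, 467, 1299 and 1248 CPM, and with both agents at 348, 228, 725 and 709 CPM. Levels with both agents were thus near those with TNF, and the blocked difference between these groups was -0.04 ± 0.12 log2 units, adjusted p = 0.914.

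Ctsz, a cysteine carboxypeptidase (chr2:174427493-174439039, minus strand), was at 872, 704, 768 and 779.5 CPM with vehicle and 1276, 1072, 1024 and 965 CPM with TNF. The lowest library with TNF exceeded the highest with vehicle, and Ctsz rose by 0.47 ± 0.11 log2 units, adjusted p = 0.0389. The groups without and with TNF were also separate under PFM037, at 697, 617, 752 and 777 CPM without and 1147, 896, 1049.8 and 1029 CPM with TNF. There Ctsz rose by 0.53 ± 0.11 log2 units, adjusted p = 0.0236. Both calls were sensitive to single libraries, as the call of TNF against vehicle held in 7 of 16 fits that left out a library (adjusted p = 0.0297 to 0.135) and the other in 10 of 16 (0.0151 to 0.0847). In the blocked model Ctsz was called in both comparisons whichever animal was left out.

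Ctsd, the aspartic protease (chr7:142375911-142388038, minus strand), was at 2809, 2288, 2084 and 2329.7 CPM with vehicle and 2015, 1606, 2076 and 2139.5 CPM with PFM037. With TNF it was at 2222, 1807, 1729 and 1792 CPM and with both agents at 1614, 1312, 1617 and 1604 CPM. The group with both agents lay wholly below vehicle, and there Ctsd fell by 0.63 ± 0.13 on the log2 scale (SE, adjusted p = 0.0154), the single call of that comparison without a block. It was lost without the vehicle library of animal 1 (adjusted p = 0.0567) or the library of animal 2 with both agents (0.0657). With TNF alone Ctsd fell in the blocked model (-0.33 ± 0.09 log2 units, adjusted p = 0.0138), a call lost without animal 4 (adjusted p = 0.0845). Of its exon bases, 34.4% are shared on the same strand with Gm49369, so its counts may hold reads of that gene.

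Ctsb, a cysteine protease (chr14:63122462-63145923, plus strand), had the highest count of the proteases, at 5365, 3812, 4878 and 5407 CPM with vehicle and 4958, 3752, 4820.1 and 4847 CPM with TNF. Vehicle and TNF libraries of an animal were close, and the blocked change with TNF was -0.08 ± 0.10 log2 units, adjusted p = 0.624. It was at 3617, 2460.0, 4964 and 4753 CPM with PFM037 and 3620.4, 2809, 4396 and 4434 CPM with both agents. Animals 1 and 2 were much lower with PFM037, animal 4 somewhat lower and animal 3 slightly higher, for a blocked change of -0.33 ± 0.10 log2 units, adjusted p = 0.274.

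Ctsc, a dipeptidyl peptidase that activates granule serine proteases (chr7:88278085-88310888, plus strand), went the other way. Its levels were 521, 491, 1049 and 964 CPM with vehicle and 624, 546, 1146 and 1051 CPM with PFM037. With TNF they were 496, 419.9, 1139.6 and 1168 CPM and with both agents 763, 707, 1274 and 1228 CPM. In every animal the level with both agents was above that with TNF, and in the blocked model Ctsc rose by 0.40 ± 0.09 log2 units, adjusted p = 0.0471. Of the other 4 proteases, the endopeptidase gene Ctsl fell with TNF in the blocked model (-0.58 ± 0.09 log2 units, adjusted p = 0.000177), and Ctsa, Ctsh and Tpp1 did not pass the threshold there. Ctsl shares 26.8% of its exon bases with the antisense gene Gm47123, and the sources used here do not give the strand setting of the counting. On the opposite strand, exon overlaps of over 10% were also found for Sgsh with Card14 (21.6%) and Sqstm1 with Mrnip (17.3%). The others were Ctsb with Fdft1 (12.8%), Hexa with Tmem202 (12.8%) and Ctsa with Pltp (10.5%). Over all libraries these neighbours had from 11 counts (Card14) to 6101 (Fdft1). Ppt1 shares only 3.51% of its exon bases with Cap1, but Cap1 had 286931 counts beside 42561 of Ppt1.

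Among the glycosidases and sulfatases, 9 of 11 genes were below 0 with TNF, with a median log2 change of -0.167 without a block. Galns, a sulfatase of keratan and chondroitin sulfate (chr8:122578242-122611463, minus strand), was at 81.6, 94.3, 86.7 and 92.6 CPM with vehicle and 70.5, 75.1, 74.2 and 70.4 CPM with TNF. All TNF libraries lay below all vehicle libraries, and Galns fell by 0.29 ± 0.07 on the log2 scale (SE, adjusted p = 0.0417). This call held in 2 of 16 fits that left out a library (adjusted p = 0.0402 to 0.16). Galns was at 83.3, 84.9, 92.7 and 84.997 CPM with PFM037 and 74.4, 73.8, 81.2 and 73.6 CPM with both agents.

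Sgsh, the sulfamidase of heparan sulfate (chr11:119343425-119355536, minus strand), was the lowest of these genes per kilobase. It was at 15.9, 22.0, 29.0 and 32.8 CPM with vehicle and 10.7, 12.4, 22.8 and 18.4 CPM with TNF. Each animal was lower with TNF, although the groups overlapped, and Sgsh fell in the blocked model (-0.64 ± 0.11 log2 units, adjusted p = 0.000432). With PFM037 it was at 16.9, 16.0, 27.6 and 33.8 CPM and with both agents at 10.3, 10.1, 19.5 and 19.1 CPM. Man2b1, the acid mannosidase, fell with TNF by 0.40 ± 0.07 in the same model (adjusted p = 0.000631). Fuca1, a fucosidase, and Glb1, the acid galactosidase, also fell, by smaller amounts (-0.17 and -0.17 on the log2 scale), and both calls were lost in at least 3 of the 4 blocked fits without an animal.

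Hexa, the alpha subunit of beta-hexosaminidase (chr9:59539540-59565109, plus strand), had the highest count of this class, at 617, 507, 705 and 764 CPM with vehicle and 548, 482, 624 and 677 CPM with TNF. It was at 471, 413, 718 and 698 CPM with PFM037 and 434, 403, 558 and 565 CPM with both agents. Every animal was lower with both agents than with TNF alone, with a blocked change of -0.25 ± 0.07 log2 units, adjusted p = 0.1. Gla, the acid alpha-galactosidase (chrX:134588149-134601125, minus strand), was at 115, 82.04, 123 and 125 CPM with vehicle and 83.8, 62.8, 120.3 and 115 CPM with PFM037. Its libraries with TNF had 115, 87.9, 107 and 128 CPM, and those with both agents 79.7, 65.1, 109 and 112 CPM. Animals 1 and 2 were much lower with PFM037 and animals 3 and 4 slightly lower, and the blocked change of Gla with PFM037 was -0.25 ± 0.09 log2 units, adjusted p = 0.38. The other 4 of the class, the glucuronidase Gusb, the acid glucosidase Gaa, the sialidase Neu1 and the iduronate sulfatase Ids, were not called with TNF alone.

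Of the lipid hydrolases, Lipa, the acid lipase that frees cholesterol and fatty acids from engulfed lipoprotein (chr19:34492318-34527474, minus strand), varied most. It was at 1323, 1092, 863 and 1037 CPM with vehicle and 1852, 1968, 959 and 1006 CPM with TNF. Animals 1 and 2 were far higher with TNF, animal 3 slightly higher and animal 4 slightly lower, and the blocked change was 0.38 ± 0.14 log2 units, adjusted p = 0.0686. With PFM037 Lipa was at 1009.5, 748, 814 and 882 CPM and with both agents at 1269.9, 1404, 966 and 1025 CPM, for a blocked change with PFM037 alone of -0.30 ± 0.14 log2 units, adjusted p = 0.579. Smpd1, the acid sphingomyelinase (chr7:105554360-105558389, plus strand), was at 25.4, 23.6, 29.2 and 33.5 CPM with vehicle, 22.9, 27.1, 26.1 and 24.9 CPM with PFM037, 23.6, 25.6, 25.9 and 29.1 CPM with TNF and 20.8, 21.6, 25.9 and 24.1 CPM with both agents. The blocked change from TNF to both agents was -0.17 ± 0.09 log2 units, adjusted p = 0.357, with all 4 groups overlapping. The acid ceramidase Asah1, the palmitoyl thioesterase Ppt1 and Plbd2 were not called with TNF or with PFM037.

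The lumenal cofactors were led by Psap (chr10:60277627-60302597, plus strand), at 5951, 5256, 7798 and 8039 CPM with vehicle and 4379.6, 3657, 6786 and 6512 CPM with PFM037. With TNF it was at 6039, 5052, 7625 and 7064 CPM and with both agents at 4796, 3839, 5688 and 6055 CPM. The level with PFM037 was lower in every animal with and without TNF, while the spread between animals made the groups overlap. In the blocked model Psap fell from TNF to both agents by 0.34 ± 0.07 (adjusted p = 0.0397), and the change without TNF was -0.36 ± 0.07 log2 units, adjusted p = 0.0839. Grn, progranulin (chr11:102430315-102437048, plus strand), was at 1342, 1266, 1970.0 and 1849 CPM with vehicle and 1059, 875, 1761 and 1534 CPM with TNF. It was lower with TNF in all animals and fell in the blocked model (-0.33 ± 0.07 log2 units, adjusted p = 0.00447). Grn was at 1204, 1004, 2061 and 1825 CPM with PFM037 and 1124, 823, 1640.2 and 1491 CPM with both agents. Npc2, a cholesterol-binding protein of the lumen, was not called in any comparison of treatments.

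Among the membrane proteins, Gpnmb, a glycoprotein of macrophage lysosomes and phagosomes (chr6:49036546-49070929, plus strand), had the highest count. It was at 2584, 1878, 2872 and 3124 CPM with vehicle and 1663, 953, 2691 and 2503 CPM with PFM037. With TNF it was at 2084, 1284, 2423 and 2235 CPM and with both agents at 1188, 707, 2016 and 1959 CPM. Every animal was lower with PFM037 on either background, and animal 2 was lowest in all 4 groups. With the block, Gpnmb fell from TNF to both agents by 0.53 ± 0.13 (adjusted p = 0.049), and with TNF alone by 0.40 ± 0.13 (adjusted p = 0.0324). The call with TNF alone was kept without animal 3 and lost without any of the others (adjusted p up to 0.126).

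Laptm5, a lysosomal membrane protein of blood cells (chr4:130913125-130936141, plus strand), was among the most even of the 45 genes between animals. It was at 1321, 1369.8, 1367 and 1342 CPM with vehicle and 1142, 1230.4, 1181 and 1021 CPM with TNF. All vehicle libraries lay above all TNF libraries, and Laptm5 fell in the blocked model (-0.24 ± 0.07 log2 units, adjusted p = 0.0254) but was not called without the block (adjusted p = 0.215). The blocked call was kept without animal 2 and lost without any of the others (adjusted p up to 0.186). With PFM037 it was at 1290.2, 1272, 1424 and 1369 CPM and with both agents at 1266, 1178, 1164 and 1037 CPM. Lamp1 and Lamp2, the major glycoproteins of the membrane, Scarb2, which carries glucocerebrosidase to lysosomes, the cholesterol exporter Npc1, Mcoln1 and the tetraspanin Cd63 were not called with TNF in either model.

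Sqstm1, the ubiquitin-binding autophagy receptor also called p62 (chr11:50199366-50210827, minus strand), was at 493, 515, 438 and 426 CPM with vehicle and 838, 896, 671 and 544 CPM with TNF. The groups did not overlap, and Sqstm1 rose by 0.66 ± 0.15 log2 units, adjusted p = 0.0257, a call that held in 11 of 16 fits without a library (adjusted p = 0.00584 to 0.094). It was at 440.3, 426, 412 and 384 CPM with PFM037 and 732, 682, 566 and 527 CPM with both agents. In this pair too every library with TNF was above every library without it, at 0.59 ± 0.15 log2 units, adjusted p = 0.0501 without a block and 0.58 ± 0.08 log2 units, adjusted p = 9.93e-05 with it. Tfeb fell with TNF in the blocked model (-0.32 ± 0.07 log2 units, adjusted p = 0.00569), a call lost without animal 4 (adjusted p = 0.0569), while Tfe3 was not called with TNF alone (0.12 ± 0.06 log2 units, adjusted p = 0.192).

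None of the 6 V-ATPase subunits of the list was called in any comparison of treatments in either model. Atp6v1b2, a B subunit of the ATP-hydrolysing sector (chr8:69088646-69113711, plus strand), had the highest count, at 797, 669, 594 and 613 CPM with vehicle and 711, 594, 606 and 622 CPM with PFM037. Its levels with TNF were 754, 772, 578 and 593 CPM and with both agents 698, 669, 607 and 596 CPM, so that all groups overlapped. Atp6v0d1, of the membrane sector (chr8:105524465-105566047, minus strand), was at 335, 286, 271 and 269 CPM with vehicle and 273, 229, 269 and 264 CPM with PFM037. With TNF it was at 353, 315, 271 and 264 CPM and with both agents at 291, 267, 264 and 246 CPM. The level was lower with PFM037 in each animal on either background, with blocked changes of -0.16 ± 0.07 log2 units, adjusted p = 0.577 without TNF and -0.17 ± 0.07 log2 units, adjusted p = 0.287 with it. The accessory subunit gene Atp6ap1 (chrX:74297097-74304721, plus strand) was at 553, 469, 591 and 602 CPM with vehicle and 489.7, 424, 590.4 and 589 CPM with PFM037. It was at 572, 532, 600.0 and 628 CPM with TNF and 511, 492, 541 and 568 CPM with both agents, again lower with PFM037 in each animal. All 6 subunits were below 0 with PFM037 in both settings, with log2 medians of -0.146 without TNF and -0.151 with it, which held under each scaling tried. With TNF alone 5 of 6 were above 0 under TMM, with a median of 0.063, and 3 under library size alone.

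**Figure D3:**
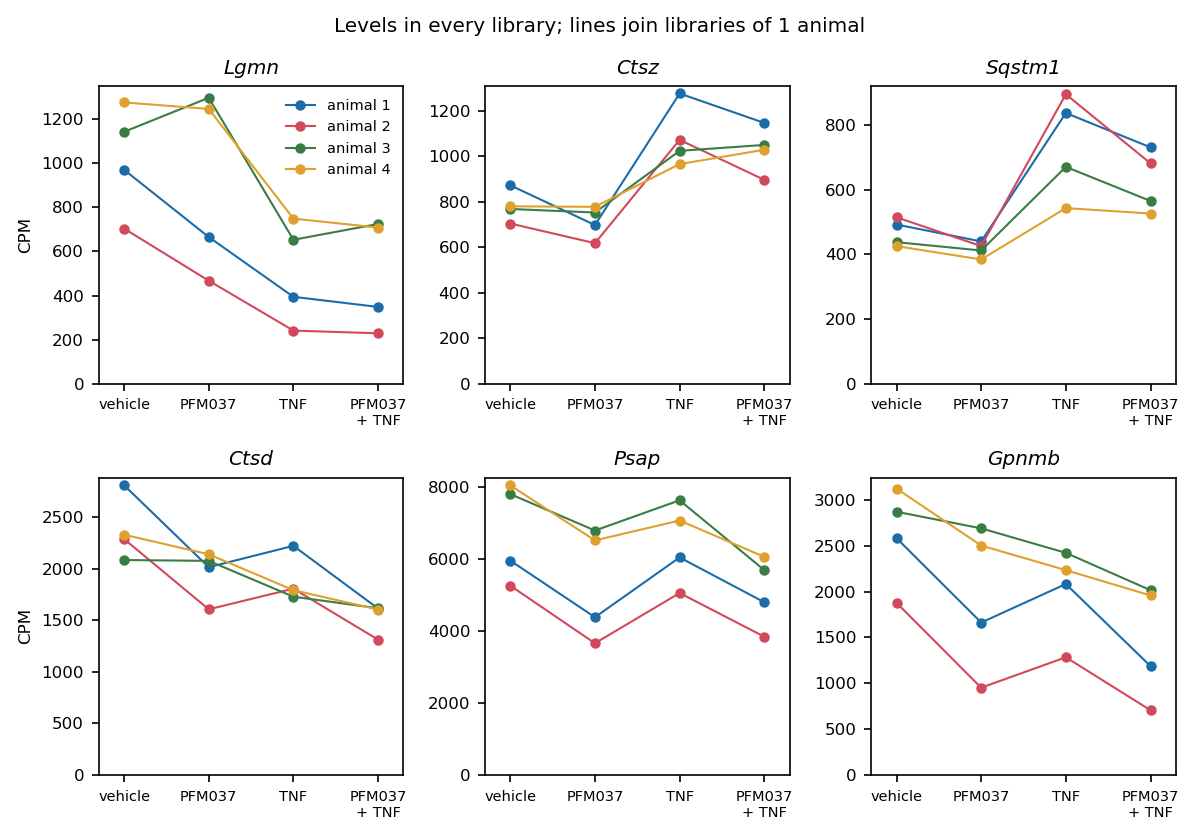
Each panel gives the CPM of a gene (vertical axis from 0) in all 16 libraries by treatment, and a line joins the 4 libraries of an animal. Lines of Lgmn drop and those of Ctsz and Sqstm1 climb from the groups without TNF to those with it. The lines of Psap dip at both groups with PFM037. Those of Gpnmb do so in animals 1 and 2 and fall from group to group in animals 3 and 4.

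PFM037 against vehicle gave no called gene among the 45 in either model. Without a block, 0 of all 13856 genes were called by edgeR (0%), and DESeq2 and limma-voom called 0 of the 45 as well. At an unadjusted p under 0.05 there was 1 of the 45 by each of these tools and 13 by the blocked edgeR model, beside 223 of all 13856 genes (1.61%) in edgeR without a block and 1195 (8.62%) with it. With the block, 0.0144% of all genes were called higher and 0.0650% lower. The smallest blocked adjusted p-values of the list were those of Psap (0.0839), Gpnmb (0.162) and Ctsb (0.274). The estimates were nonetheless on one side, with 43 of 45 below 0 and a median of -0.133, beside 50.6% of all genes below 0 and a median of -0.002. Scaled by library size alone, 41 of 45 were below 0, beside 39% of all genes. Ctsc at 0.17 and Man2b1 at 0.02 on the blocked log2 scale were the 2 above it.

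Counted animal by animal, 22 of the 45 genes were lower with PFM037 than with vehicle in all 4 animals (48.9%, beside 11.4% of all genes). Higher in all 4 was 1 gene, beside 10.5% of all genes. The medians of the 45 genes in animals 1 to 4 were -0.175, -0.275, -0.009 and -0.080 on the log2 scale. Animals 1 and 2 thus moved furthest and animal 3 hardly. The medians over all genes in these animals lay between -0.005 and 0.002. The markers of mast cells, basophils and eosinophils summed to 299.9, 341.2, 119.5 and 115.2 CPM with vehicle and to 464.6, 465.2, 126.5 and 134.2 CPM with PFM037. All 9 of these markers were above 0 with PFM037, as were all 9 neutrophil markers, and 7 of the 10 monocyte and macrophage markers were below it, with none of them called. Their part in the lysosomal differences was not tested.

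With TNF present, PFM037 gave 0 called genes among the 45 without a block, beside 0% of all genes. The unadjusted p was under 0.05 for 1 of the 45 in edgeR, DESeq2 and limma-voom alike, and for 17 in the blocked model, beside 515 of all genes (3.72%) in edgeR without a block and 2132 (15.4%) with it. With the block, Psap and Gpnmb fell and Ctsc rose, so that 1 gene was called higher beside 0.534% of all genes and 2 lower beside 0.823%. None of the 3 calls held when any animal was left out. The adjusted p reached 0.14 for Psap, 0.244 for Gpnmb and 0.265 for Ctsc. The median of the 45 genes was -0.123, beside 0.005 over all genes, and 37 of 45 were below 0, beside 48.6%. Neutrophil markers summed to 7554 to 11970 CPM with TNF and 8930 to 18840 CPM with both agents. All 9 were above 0, and with the block 2 of them, Ltf and Ly6g, rose. All 9 markers of mast cells, basophils and eosinophils were also above 0, with none called. So were all 20 interferon-stimulated genes, of which 1 rose with the block and none was called without it. The part of these shifts was not tested. In single animals the medians were -0.179, -0.207, -0.029 and -0.080, and 16 of 45 genes were lower in all 4 (35.6%, beside 10.7% of all genes).

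The comparisons of PFM037 without and with TNF share animals but no library. Over the 45 genes the log2 changes without a block correlated at Pearson's r = 0.841, and over all genes at 0.352. This is a description across genes, which are not independent replicates, and the 4 animals are common to both. The list had 37 genes below 0 in both settings, beside 33.3% of all genes, 2 above 0 in both and 6 with opposite signs. Lower with PFM037 in all 8 within-animal pairs were 12 genes (26.7%, beside 3.7% of all genes). They were the proteases Ctsd, Ctsl, Ctsa and Tpp1, the glycosidases Fuca1 and Neu1, Psap, the membrane proteins Gpnmb and Lamp1, Sqstm1, and the V-ATPase genes Atp6v0d1 and Atp6ap1. For Psap the log2 ratios within animals 1 to 4 were -0.44, -0.52, -0.20 and -0.30 without TNF and -0.33, -0.40, -0.42 and -0.22 with it. Gpnmb had -0.64, -0.98, -0.09 and -0.32 without TNF and -0.81, -0.86, -0.27 and -0.19 with it. The ratios of Gpnmb were largest in animals 1 and 2. Those of Psap were smaller in size with TNF than without it in animals 1, 2 and 4 and larger in animal 3.

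**Figure D4:**
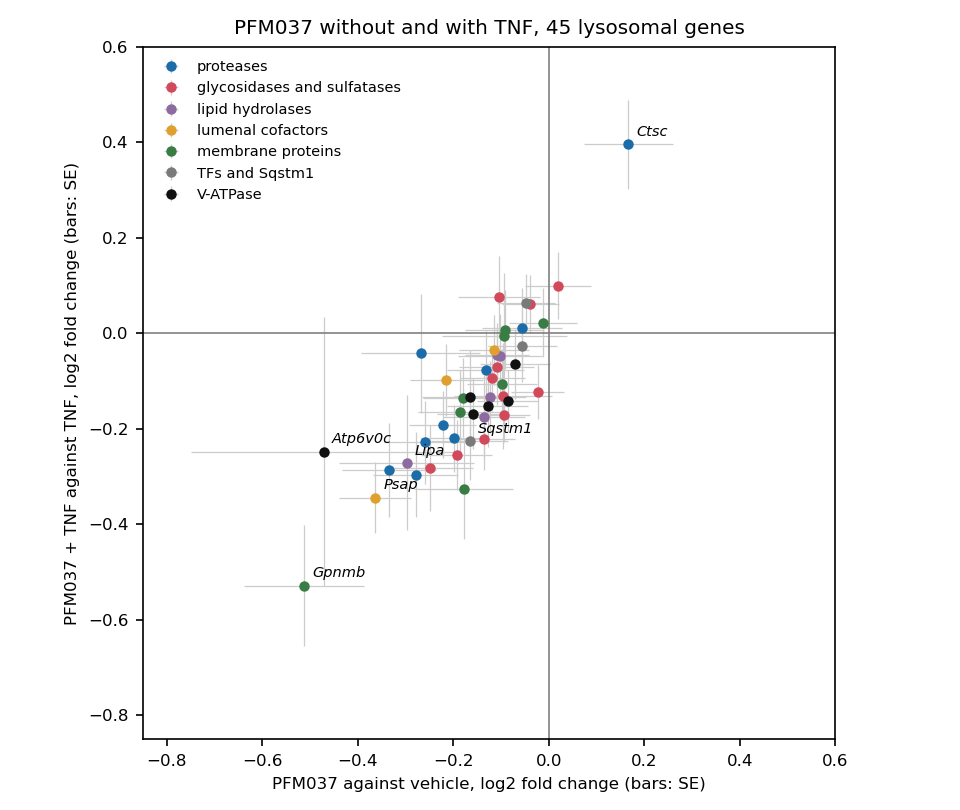
Each point is one of the 45 genes, coloured by role, at its blocked log2 fold change for PFM037 against vehicle (horizontal) and for PFM037 with TNF against TNF (vertical), with bars of 1 SE. Most points lie at the lower left, with Gpnmb and Psap far from 0, and Ctsc lies farthest to the upper right.

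The interaction asks whether the change with PFM037 depended on TNF. No gene of the 45 was called in either model, and 0% of all genes were. In edgeR with and without the block, DESeq2 and limma-voom, 0 of the 45 had an unadjusted p under 0.05, against 91 of all genes without the block and 383 with it. The largest estimate of the list was 0.256 on the log2 scale without a block. A change that depends on TNF by less than the spread of these libraries was not detectable.

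Both agents together set against vehicle lowered Ctsd in the model without a block and, with the block, lowered 23 of the 45 genes and raised 5. Without a block 0 genes were higher and 1, Ctsd, was lower, beside 1.38% of all genes higher and 1.26% lower. With the block 5 were higher, beside 12.8% of all genes, and 23 lower, beside 12.0%. Higher were Ctsc (0.43), Sqstm1 (0.41), Ctsz (0.40), Ids (0.29) and Tfe3 (0.18 on the blocked log2 scale). The lower genes were 6 of 9 proteases, 9 of 11 glycosidases and sulfatases, 2 of 5 lipid hydrolases, 2 of 3 cofactors, 3 of 8 membrane proteins and Tfeb, and 0 of 6 V-ATPase subunits. The farthest were Lgmn at -1.17 ± 0.13 log2 units, adjusted p = 8.67e-06, Gpnmb at -0.93 ± 0.13 log2 units, adjusted p = 6.86e-05, and Ctsl at -0.81 ± 0.09 log2 units, adjusted p = 8.83e-06. In the glycosidase class, Sgsh at -0.77, Hexa at -0.40, Fuca1 at -0.34 and Gla at -0.30 were among those that fell.

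Of these 28 blocked calls, 16 were made whichever animal was left out, 3 higher and 13 lower, and the counts of the 4 fits were 19 to 26. The median of the list was -0.229 without a block, beside -0.010 over all genes, and 37 of 45 genes were below 0, beside 51.7%. Ctsd was lower with both agents in every animal, by log2 ratios of -0.80, -0.80, -0.37 and -0.54. Monocyte and macrophage markers summed to 35390 to 43170 CPM with both agents, beside 26360 to 37140 CPM with vehicle. With the block 5 of these 10 markers rose and 3, Ccr2, Mertk and Cd68, fell. In the same model 4 of 9 markers of mast cells, basophils and eosinophils rose and 3 of 7 tested osteoclast markers fell, while none of the 9 neutrophil markers was called. Of 20 interferon-stimulated genes 18 rose with the block and none was called without it. The part of these shifts in the changes of lysosomal genes was not tested. Group means of Ctsd were 2378 ± 307 CPM (SD, n = 4) with vehicle and 1959 ± 241 CPM (SD, n = 4) with PFM037. They were 1887 ± 225 CPM (SD, n = 4) with TNF and 1537 ± 149.8 CPM (SD, n = 4) with both agents.

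TNF was also compared on the background of PFM037. Without a block Ctsz alone was higher and none was lower, beside 1.54% and 0.714% of all genes. With the block 5 genes were higher (beside 10.6%) and 12 lower (beside 9.76%). Ctsz, Sqstm1, Ids, Lipa and Tfe3 rose, and Lgmn, Sgsh, Ctsl, Gpnmb, Ctsd, Man2b1, Tfeb, Glb1, Fuca1, Grn, Laptm5 and Galns fell. Lgmn fell there by 0.90 ± 0.13 (adjusted p = 9.45e-05), Sgsh by 0.68 ± 0.11, and Ids rose by 0.39 ± 0.09 log2 units, adjusted p = 0.0043. Of the 17 calls, 8 were made whichever animal was left out. In this comparison, with the block, 6 of 10 monocyte and macrophage markers rose and 1, Ccr2, fell, and 2 of 9 neutrophil markers, Elane and Retnlg, fell. Of the 20 interferon-stimulated genes 17 rose with the block and none was called without it, and the part of these shifts was not tested.

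The split of blocked calls depended on the scaling. With library size alone in place of TMM, TNF against vehicle had 2 members higher and 16 lower, and 1064 genes higher and 2148 lower in all, where TMM gave 1329 and 1363. TNF on the background of PFM037 had 3 members higher and 18 lower, and 1057 and 2275 genes in all, where TMM gave 1475 and 1353. For both agents against vehicle the counts were 4 and 23 members and 1483 and 1999 genes, where TMM gave 1771 and 1666. For PFM037 with TNF against TNF they were 1 and 1 members and 117 and 87 genes, where TMM gave 1 and 2 members and 74 and 114 genes, so that the larger side changed over all genes. Library size alone moved the median of all genes by at most 0.0685 on the log2 scale.

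Changes of genes with and without the promoter motif are given as a description. With PFM037 all 12 genes with CACGTG were below 0, at a median of -0.162, as were 23 of 25 genes whose window lacked it, at a median of -0.112. With TNF present, all 12 were again below 0 with PFM037 (median -0.14), beside 18 of 25 without the motif (median -0.123). Under library size alone 11 of 12 were below 0 in either setting. Beside them stood 41 of all 45 genes without TNF and 35 with it, and 39% and 42.7% of all genes tested. With TNF alone 7 of 12 genes with the motif were below 0, among them Lgmn and Sgsh shown above, beside 17 of 25 without it. Library size alone put 11 of 12 below 0, beside 34 of all 45 genes and 61.5% of all genes tested. Genes without the motif were not counted apart under that scaling.

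Levels of the 45 genes ranged more widely between animals than between treatments for 35 of the 45, beside 69.8% of all genes. With treatment held in the model, 40 of 45 genes were called for a difference between the 4 animals, beside 60.6% of all genes. Replicates of an animal in that test were its 4 treated cultures. A difference of the animal and one of its cell preparation or handling cannot be told apart. The 5 genes not called were Gaa, Galns, Smpd1, Laptm5 and Atp6v1a. Averaged over the treatments, the range between animals had a median of 0.541 on the log2 scale and the range between treatments one of 0.300, where all genes had 0.466 and 0.307. Animal 2 was lowest for 31 of 45 genes, beside 29.1% of all genes, and animals 3 and 4 were both above animals 1 and 2 for 29 genes, beside 36% of all genes, and both below them for 10, beside 37.3%. Npc2 had the widest range, 1.39, with means over the treatments of 757, 577, 1514 and 1486 CPM in animals 1 to 4. Lgmn was close behind with 595, 410.1, 955 and 996 CPM. Lipa, Ctsl and Cd63 ran the other way in part, being highest in animal 1.

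The animals also differed in marker sums. Interferon-stimulated genes summed to 470.1 and 359.9 CPM with vehicle in animals 1 and 2, and to 3040 and 2839 CPM in animals 3 and 4. The neutrophil sum was highest in animal 2 in every group, at 18180 CPM with vehicle beside 8605 to 10980 CPM in the other 3 animals. The part of these differences in the levels of lysosomal genes was not tested, and the sources used here give nothing that distinguishes the animals beyond their number.

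**Figure D5:**
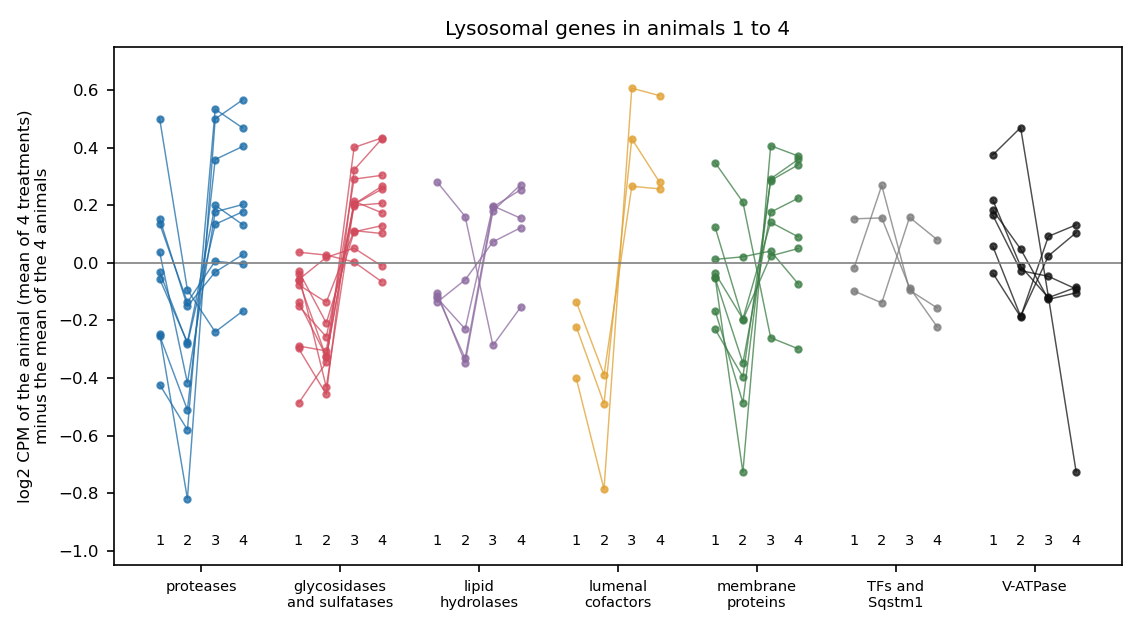
For each of the 45 genes, grouped by role, 4 joined points give the log2 CPM of animals 1 to 4, averaged over the 4 treatments, minus the mean of the animals. Point 2 is the lowest in most lines, and a few lines, such as those of Lipa and Cd63, slope the other way.

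Other genes of the lysosomal system, from lists kept apart from the 45, are given for TNF and for PFM037 against vehicle. From TNF to both agents only the hydrolases are given, and the remaining comparisons are not given for these lists. Among 32 tested further hydrolases, 0 were called with TNF without a block, and 4 rose and 9 fell with it, beside 9.59% of all genes higher and 9.84% lower, shares that also stand beside the blocked counts with TNF of the lists that follow. Smpdl3b, a sphingomyelinase-like phosphodiesterase, was at 8.22, 9.46, 29.4 and 28.9 CPM with vehicle and 43.5, 45.2, 81.97 and 78.0 CPM with TNF. All TNF libraries exceeded all vehicle libraries, and it rose in the blocked model by 1.83 ± 0.17 log2 units, adjusted p = 1.84e-06. The acid phosphatase Acp2 rose by 0.67 (adjusted p = 0.000123) and lysozyme, Lyz2, by 0.49 (adjusted p = 0.000502), while the carboxypeptidase Scpep1 fell, at -0.36 (adjusted p = 0.00122). From TNF to both agents 1 hydrolase was called with the block, Ctsk, a cysteine protease, which fell at -0.71 (adjusted p = 0.0469). With PFM037 alone none was called in either model, and 25 of 32 were below 0 under TMM, with a median of -0.096, beside 50.6% of all genes. Under library size alone 21 were, beside 39% of all genes.

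Of 26 further membrane proteins, Slc11a1, the metal transporter of phagosomes, rose with TNF without a block (0.63 ± 0.10 log2 units, adjusted p = 0.00259), from 401, 447, 428 and 471 CPM to 727, 773, 599 and 602 CPM. With the block 4 rose and 5 fell, among the latter Mfsd12 at -0.50 (adjusted p = 0.000156), the sialic acid exporter Slc17a5 at -0.41 (adjusted p = 0.00212) and the cation channel Tpcn1 at -0.55 (adjusted p = 0.000238). Of 13 further V-ATPase subunits, Atp6v0a1, an isoform of the large membrane subunit, fell with TNF without a block (-0.43 ± 0.09 log2 units, adjusted p = 0.0217), and Atp6v1e1 rose with the block, by 0.26 (adjusted p = 0.0117). With PFM037 all 13 were below 0 under TMM and 11 under library size alone, with a TMM median of -0.153, and none was called.

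In the delivery route, 23 genes, M6pr, a mannose phosphate receptor, rose with TNF without a block (0.46 ± 0.08 log2 units, adjusted p = 0.005). With the block 4 rose and 2 fell, with Igf2r, the other mannose phosphate receptor, at 0.37 (adjusted p = 0.00514), Lyst at 0.58 (adjusted p = 0.000787) and Gnptg, a subunit of the enzyme that makes the mannose phosphate tag, lower at -0.52 (adjusted p = 0.00202). Among 25 regulators of mTORC1 and TFEB none was called with TNF without a block and, with it, 3 rose and 1 fell, where 9.59% and 9.84% of all genes did. The TFEB relatives Mitf at 0.41 (adjusted p = 0.0124) and Tfec at 0.40 (adjusted p = 0.00975) rose, and Flcn, which with its partners controls TFEB and TFE3, fell at -0.27 (adjusted p = 0.00675). Among 24 autophagy genes 5 rose and 0 fell with the block, with Nbr1, a cargo receptor, at 0.24 (adjusted p = 0.00641) and Rb1cc1 at 0.31 (adjusted p = 0.0167). Of 10 cystatin and serpin inhibitors, Serpinb9 rose (1.24 ± 0.21 log2 units, adjusted p = 0.00398) and Serpinb6a fell (-0.86 ± 0.20 log2 units, adjusted p = 0.0296) without a block. With the block 6 of the 10 rose, among them Cstb, Cst7 and the stefin genes Stfa1 and Stfa3, and 2 fell, Serpinb6a and Cst3. With PFM037 alone no gene of these 7 lists was called in either model. Under TMM 21 of 26 membrane proteins, 19 of 23 delivery genes and 18 of 25 regulators were below 0. So were 14 of 24 autophagy genes and 4 of 10 inhibitors, beside 50.6% of all genes. Library size alone gave 20, 15, 13, 10 and 4 in the same order, beside 39% of all genes.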

How the data were processed

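Total RNA of 16 cultures (4 animals, 4 treatments, 24 h) was purified on spin columns, 500 ng entered a stranded poly(A) kit, and a NextSeq 500 gave 75-base reads from one end, per the labels' protocols. The submitters' processing notes name STAR 2.5.3a, featureCounts, limma and the mouse build mm10 (GRCm38), without their roles; the annotation release and strand setting were not given in the sources used here. Deposited values are read counts by the authors, whole and not normalized, for 50508 genes, of which 30556 had a count and 26 carry a date in place of a symbol. Reads in overlapping genes or near-identical copies can be lost or shared. Totals ran from 9403232 to 21017905 counts per library, and low genes are least precise in the shallower ones.

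The test was edgeR 4.0.16 in R 4.3.3 (quasi-likelihood F-test, two-sided, TMM scaling, filterByExpr with a minimum count of 10 and a minimum total of 15), in a model with a mean for each of the 4 groups over all 16 libraries. Of the genes, 13856 were tested, and p-values were adjusted by Benjamini-Hochberg over all of them, with a threshold of 0.05. CPM are counts scaled to a common total with TMM factors, and within-animal log2 ratios used a prior count of 2. The alternative with the animal as a block rests on the labels, which give the same 4 animals in each group. Libraries of an animal deviated together from their group means (correlations of 0.497 to 0.777), and a library's best partner in another group was of the same animal in 45 of 48 cases. Other alternatives were library size alone, DESeq2 size factors, a filter of 5 CPM, no filter, DESeq2 1.42.0, limma-voom (limma 3.58.1), only the groups compared, and each library or animal left out. The model code was tested on simulated data.

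The 45 genes, the other lists and the tests were chosen with earlier results of these data known. Values in every library are given for members called without a block, for the highest in each role, and for those with the smallest blocked p in each role with TNF, with PFM037 and with PFM037 on TNF. From each further lysosomal list the genes with the smallest blocked p were eligible, with TNF and with PFM037. Coordinates, exon lengths and overlaps are from GENCODE M21 on GRCm38, and promoters from RefSeq on GRCm38.p6, of which 5 are printed. Motifs were searched on both strands in windows of 300 bases.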

Additional observations from a re-analysis of the deposited data

Results flagged for a closer look

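Levels of the named genes and the library totals were searched for single libraries far from the other 3 of their group. A library was taken where its gap to the nearest of the others exceeded Dixon's 95% critical share of the group's range, and 80 groups of 4 were searched. Chance alone flags about 1 in 20 such groups, and 5 were found. Ctsb was at 3752 CPM in the TNF library of animal 2, with a gap of 0.886 of the range below the others. Ctsd was at 2222 CPM in the TNF library of animal 1, above the others by 0.842 of the range, and at 1312 CPM in the library of animal 2 with both agents, below the others by 0.958. Without that last library the call of Ctsd for both agents against vehicle was lost, as stated above. Galns was at 81.2 CPM in the library of animal 3 with both agents, above the others by 0.891 of the range. The vehicle library of animal 4 had 14114703 counts, below the other vehicle libraries by 0.867 of the range.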

How the results depend on the processing

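Numbers of called members depended most on whether the pairing by animal was modelled. The share of all genes called also rose with the block, from 2.68% to 19.4% with TNF against vehicle. For PFM037 with TNF it rose from 0% to 1.36% against TNF and from 2.25% to 20.4% against PFM037. Both agents against vehicle went from 2.63% to 24.8%. Counts of members below are thus not a result about these genes alone. With TNF against vehicle 3 members were called, and 14 with the replicate block, 18 with the block and library size, 1 with library size alone, 1 without a filter and 0 when only the groups compared were fitted. Without single libraries the count was 0 to 3. For PFM037 with TNF against TNF, 0 became 3 with the block and 2 with the block and library size. For PFM037 with TNF against PFM037, 1 became 17 with the block, 21 with the block and library size, 2 with DESeq2 size factors, 2 with the filter of 5 CPM, 2 with DESeq2, 0 without a filter and 0 with only the groups compared, and it was 0 to 2 without single libraries. For both agents against vehicle, 1 became 28 with the block, 27 with the block and library size, 4 with DESeq2 and 0 with only the groups compared, and it was 0 to 1 without single libraries. PFM037 against vehicle and the interaction gave 0 members under every alternative run. Differences between animals were called for 39 to 42 members, against 40 in the main fit, where 60.6% of all genes were called. The causes of these shifts were not tested, and some of these fits held fewer libraries. Among values of single members 1040 kept their side of the threshold, 70 passed it newly and 125 no longer did, and no direction was reversed where it was called. All 149 alternative medians differed from the main median by no more than the median SE of the members, and their signs were not compared. Low genes such as Atp6v0c and Sgsh are the least precise at these depths.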
